A study of Mus musculus with 9 samples.

Results

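The JAK, STAT and SOCS genes described here are 9 genes of cytokine signalling, Stat3, Stat4, Stat5a, Stat5b, Jak1, Jak3, Socs1, Socs3 and Cish, of 21887 protein-coding genes considered. Around each, every E2A or HEB peak that lay in the gene's span or within 50 kb of either end was taken from 6 peak lists. The windows held 100 peaks. Peaks of any list that overlapped were joined into 1 site, which gave 55 sites near the members of 58451 in the whole series. The windows of Stat3, Stat5a and Stat5b overlap, since these genes lie side by side on chromosome 11, so the 9 genes occupy 7 separate loci and a site at the shared locus counts for each gene within reach.

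The peaks come from chromatin immunoprecipitation and sequencing in mouse thymocyte precursors of the BALB/c strain, all Rag2-deficient and grown from fetal liver progenitors. DN3 cells, a precursor stage before the choice between the T cell lineages, were taken at day 7. Other DN3 cells received the KN6 gamma-delta T cell receptor from a virus-producing cell layer, overnight and with interleukin 7 and Flt3 ligand present. They then spent 3 days on OP9-DL1 stroma, which displays a Notch ligand, and the labels count these days from a sort. After fixation for 10 min in 1% formaldehyde the cells were sorted as CD24+ CD73- or CD24+ CD73+ cells. Per the labels the CD73- cells kept alpha-beta potential and the CD73+ cells had committed to the gamma-delta lineage. A library of input, one of E2A and one of HEB stood for each stage, giving 9 libraries and 6 lists. The authors had joined duplicates into 1 file per library, so these values carry no replicate error and stages were not tested against each other. No cells transduced without the receptor are among the samples, so receptor, transduction and added culture cannot be told apart. The labelled cell types cannot be checked against marker genes from these peak positions.

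Cytokines such as interleukin 7 act on thymocyte precursors through receptors that carry JAK kinases. An activated JAK phosphorylates the receptor and then STAT proteins, which enter the nucleus and switch on target genes. Among these targets are Cish, Socs1 and Socs3, whose products bind receptors or JAKs and shut the signal down. E2A and HEB are E proteins, basic helix-loop-helix factors that bind as dimers to the E-box, a short DNA element.

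The score of a peak is the authors' MACS value, 10 times the negative log10 of a p-value, against the input of the same stage. It starts at 50 and orders the peaks of 1 list, so scores of different lists are set side by side below without being compared in size. Peaks with a score of at least 100 are called strong. They made up 7.02% (CD73+ E2A) to 40.6% (DN3 E2A) of a list. The read depth behind the lists is unknown, and a gene without a peak had none called, which does not show that the factor was absent. The CD73+ E2A list stood apart. It was the longest list, with 23205 peaks against 9407 to 12434 in the others, which gives more room for sites of its own. Sites of this list alone made up 33.0% of all sites of the series. It had a peak at 16.0% of the 5292 DN3 sites of both factors, against 49.9% for the CD73+ HEB list. In CD73- cells the E2A share of these sites was also the lower, 24.0% against 32.0% for HEB. Whether the factor labels of the CD73+ lists are right cannot be settled from peak positions.

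All 9 genes had a peak within 50 kb in the DN3 E2A and DN3 HEB lists. Of all coding genes, 49.6% and 48.1% did so. In CD73- cells 5 of the 9 genes had an E2A peak (41.3% of all coding genes) and 6 had a HEB peak (37.9%). In CD73+ cells 7 had an E2A peak (53.0%) and 9 had a HEB peak (41.8%). Genes with long spans have longer windows and more room for a peak by position alone, and the members range from 1729 bp (Socs1) to 120084 bp (Stat4). Strong peaks were fewer. They stood near 5 genes for DN3 E2A (27.5% of all coding genes), 6 for DN3 HEB (22.2%), 3 for CD73- E2A (7.08%), 4 for CD73- HEB (9.08%), 1 for CD73+ E2A (9.11%) and 4 for CD73+ HEB (15.8%). The CD73+ E2A count of 1 is close to the share over all coding genes. In these counts Stat3, Stat5a and Stat5b rest on the same peaks. Per megabase of window, the members held 24.1 DN3 E2A peaks and 27.7 DN3 HEB peaks, whereas the windows of all coding genes held 5.95 and 5.28. For CD73- E2A the values were 4.47 and 4.38, and for CD73- HEB 7.15 and 3.69. For CD73+ E2A they were 8.94 and 7.54, and for CD73+ HEB 17.0 and 4.34. The loci differed. Of 27 DN3 E2A peaks, Socs3 had 9, Socs1 7 and Cish 5, against 3 for Jak3 and 1 at each other locus. Of 31 DN3 HEB peaks, Socs3 had 8 and Socs1 7, against 3 or 4 at each other locus.

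**Figure D1:**
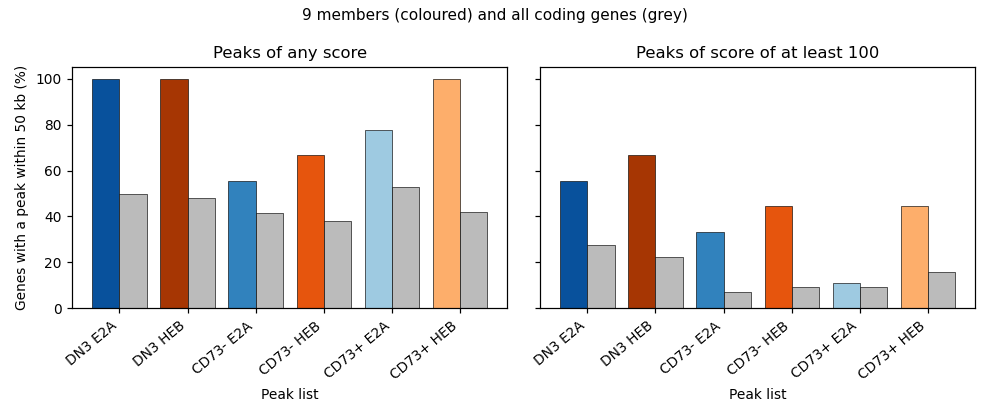
Share of genes with a peak in the span or within 50 kb, in percent, for each of the 6 peak lists. Coloured bars are the 9 members and grey bars all 21887 coding genes, for peaks of any score (left) and for peaks with a score of at least 100 (right). The members stand at 9 of 9 in 3 lists on the left, and for CD73+ E2A on the right the 2 bars are nearly level.

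The highest peak of each gene put the members in the same order in both DN3 lists. Socs3 came first with 2688 for E2A and 1141 for HEB, then Cish with 1646 and 746, Stat4 with 1057 and 382, and Socs1 with 826 and 261. Jak3 followed with 247 and 236, Jak1 with 81.9 and 156, and Stat3, Stat5a and Stat5b shared a single peak in each list, of 60.9 and 80.8. The 3 SOCS family genes and Stat4 thus had the 4 highest values within 50 kb, and the kinases and the Stat3 and Stat5 locus the lowest. Position alone does not assign these peaks to the members. The Stat4 peaks lay 43178 bp from its span at their site. Those of Cish lay nearer to Hemk1 (2949 bp) and those of Socs1 nearer to Rmi2 (6911 bp). In the CD73- lists the order was Socs3 (619 for E2A and 794 for HEB), Stat4 (282 and 392), Cish (154 and 219) and Socs1 (82.4 and 127), again the same 4 genes. In the CD73+ HEB list Socs3 led with 1881, followed by Stat4 with 416, Socs1 with 409.7 and Cish with 197. In the CD73+ E2A list Socs3 led with 379.7, every other member was under 100, and Cish and Jak3 had no peak. No spread between samples is available to say which neighbours in these orders differ.

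**Figure D2:**
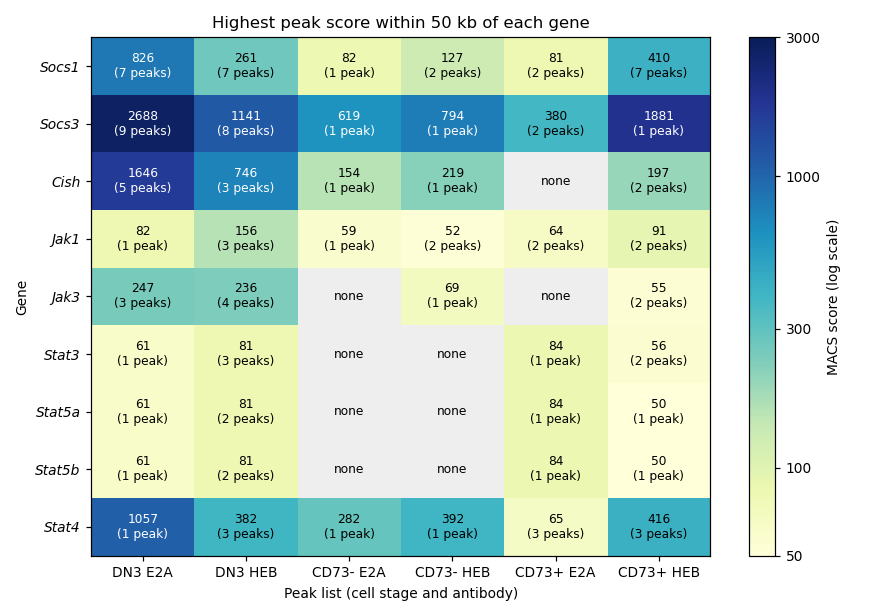
Highest peak score in the span or within 50 kb of each of the 9 genes (rows) in each peak list (columns), with the number of peaks in parentheses. Colour follows the score on a log scale and grey means that no peak was called. Socs3 has the darkest cell in every column, and Stat3, Stat5a and Stat5b have no peak in either CD73- list.

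Socs3 encodes an inhibitor of receptors that signal through gp130 and STAT3. Its main site lay on chromosome 11 at 117950820 to 117953280 in build mm10, 12799 bp beyond the 3′ end of the gene and 17.3 kb from its start, in no annotated gene. All 6 lists had a peak there, with scores of 2688 (DN3 E2A), 1141 (DN3 HEB), 619 (CD73- E2A), 794 (CD73- HEB), 379.7 (CD73+ E2A) and 1881 (CD73+ HEB). Within the lists these peaks ranked 43 of 12357, 82 of 11619, 68 of 12434, 66 of 9407, 112 of 23205 and 30 of 10194. These ranks lie between the top 0.294% and the top 0.706% of a list. The 6 peaks had 530 bp in common, from 117952075 to 117952604.

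The other 12 sites around Socs3 were called at 1 stage each. A DN3 site 46771 bp from the gene had both factors, at 176 for E2A and 162 for HEB. DN3 E2A peaks without HEB stood on either side of the gene, at 174 (34613 bp away), 132 (579 bp beyond the 3′ end) and 165 (4277 bp upstream). A narrow CD73+ E2A peak of 113, 89 bp wide, lay 12035 bp from the gene and met no peak of another list. Over the start of Socs3 itself there was a DN3 HEB peak of 55.7. With 17 of the 22 peaks around Socs3, the DN3 lists gave this locus most of its sites, while the CD73- and CD73+ lists had the 3′ site and the narrow E2A peak.

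Socs1 encodes an inhibitor that blocks JAK kinases directly. Its 12 sites included 4 with peaks in 3 or more lists, the most of any member. The farthest of these, on chromosome 16 at 10826779 to 10828148, lay at -41.9 kb from the start, upstream of the gene and 6911 bp from Rmi2, a gene of DNA repair, and had peaks in all 6 lists. Scores there were 826 (DN3 E2A), 261 (DN3 HEB), 82.4 (CD73- E2A), 127 (CD73- HEB), 81.0 (CD73+ E2A) and 409.7 (CD73+ HEB). The 6 peaks had 198 bp in common.

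At -29.6 kb and -20.75 kb from the start of Socs1 were 2 sites, each with DN3 E2A, DN3 HEB and CD73+ HEB peaks. The first scored 353, 132 and 301.02, and the second 392, 184 and 316. Neither had a peak in a CD73- list or in the CD73+ E2A list. The fourth site overlapped the 5′ part and the start of the gene, at 10784809 to 10785839. Its peaks scored 141 for DN3 E2A, 127 for DN3 HEB, 58.5 for CD73- HEB and 339 for CD73+ HEB. Only the DN3 E2A peak covered the start, at 10785536. The HEB peaks lay inside the gene and ended at 10785535 (DN3), 10785328 (CD73-) and 10785501 (CD73+). The CD73+ HEB peak ranked 560 of 10194, while the DN3 peaks ranked 3492 of 12357 and 2624 of 11619. A further DN3 site of both factors lay 10943 bp beyond the 3′ end (136 for E2A and 129 for HEB).

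**Figure D3:**
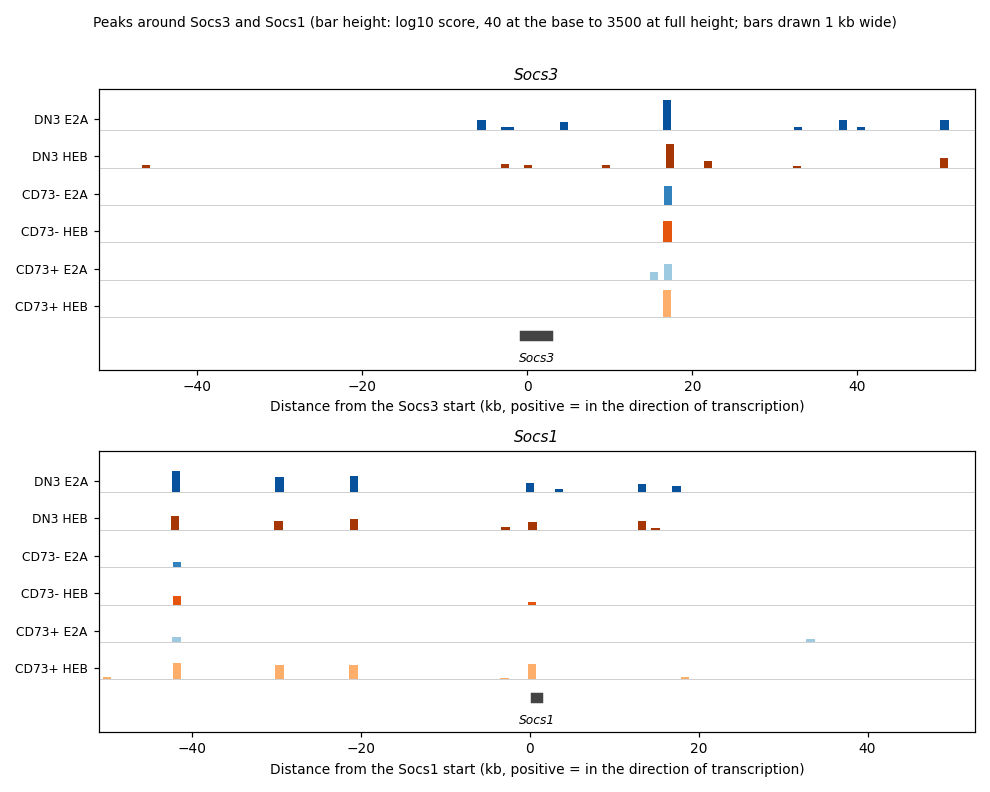
Peaks of the 6 lists around Socs3 (top) and Socs1 (bottom) by distance from the start of the gene in kb, positive in the direction of transcription. Bar height is the score on a log scale, bars are drawn 1 kb wide, and dark boxes are the gene spans. One site downstream of Socs3 has a bar in all 6 lists, and Socs1 has a row of upstream sites that are filled in the DN3 and CD73+ HEB tracks.

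Cish, the first known SOCS family gene and a target of STAT5, had no peak in its span in any list. Its main site lay 19046 bp beyond the 3′ end, on chromosome 9 at 107321830 to 107324133, and 2949 bp from Hemk1, a methyltransferase gene. The highest peaks there scored 1646 (DN3 E2A), 746 (DN3 HEB), 154 (CD73- E2A), 219 (CD73- HEB) and 197 (CD73+ HEB). Their shared part was 335 bp. The CD73+ E2A list had no peak within 50 kb of Cish, and the nearest of that list lay 86948 bp away. A DN3 E2A peak of 426 and a CD73+ HEB peak of 57.9 lay at the far end of the same site, from 107323331 to 107324133. A nearer DN3 site of both factors, 9862 bp from the gene, scored 228 for E2A and 204 for HEB and had no peak in the 4 later lists.

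Stat4 encodes the STAT that relays interleukin 12. The strong site within its window lay 43178 bp beyond its 3′ end. Scores were 1057 (DN3 E2A), 382 (DN3 HEB), 282 (CD73- E2A), 392 (CD73- HEB) and 416 (CD73+ HEB), with no CD73+ E2A peak. In its own list the CD73- E2A peak ranked 233 of 12434 and the CD73- HEB peak 196 of 9407. Within the span of Stat4 only HEB peaks were called, all under 100. They scored 94.3 (DN3) and 51.1 (CD73+) at 1 site, 32.8 kb from the start, and 57.7 (DN3) at another. The strong site cannot be assigned to Stat4 from position alone.

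Stat3, which relays interleukin 6 and related cytokines, and Stat5a and Stat5b, which relay interleukin 7, had 1 recurrent site between them. It lay within Stat3, on chromosome 11 at 100891471 to 100892310, 6302 bp beyond the 3′ end of Stat5a, and scored 60.9 (DN3 E2A), 80.8 (DN3 HEB), 83.7 (CD73+ E2A) and 50.04 (CD73+ HEB). The last value is near the minimum score. Neither CD73- list had a peak within 50 kb of these 3 genes. Within Stat5b a DN3 HEB peak of 79.1 was the only one called, and none lay within Stat5a. A CD73+ HEB peak of 55.6 lay 28 bp before the span of Stat3. No peak in reach of these 3 genes scored 100 or more.

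Jak1 and Jak3 encode the kinases that pair on receptors of the interleukin 7 type, Jak3 bound to the common gamma chain. Jak1 had 1 recurrent site, inside the gene 77.6 kb from its start, on chromosome 4 at 101186996 to 101188192, and only HEB peaks were called there. The DN3 peak scored 156, the CD73- peak 52.0 and the CD73+ peak 91.2. E2A peaks near Jak1 lay elsewhere, at 81.9 (DN3, inside Raver2), 59.0 (CD73-, inside Jak1) and 64.0 and 60.9 (CD73+, inside Raver2). Jak3 had 2 sites in 3 lists, both in neighbouring genes. The site within Unc13a, 10180 bp from Jak3, scored 103 (DN3 E2A), 236 (DN3 HEB) and 50.04 (CD73+ HEB), and that within Fcho1, 32082 bp away, scored 247, 119 and 54.7. The CD73+ HEB peaks at both were close to the minimum. A DN3 HEB peak of 87.1 covered the start of Jak3.

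**Figure D4:**
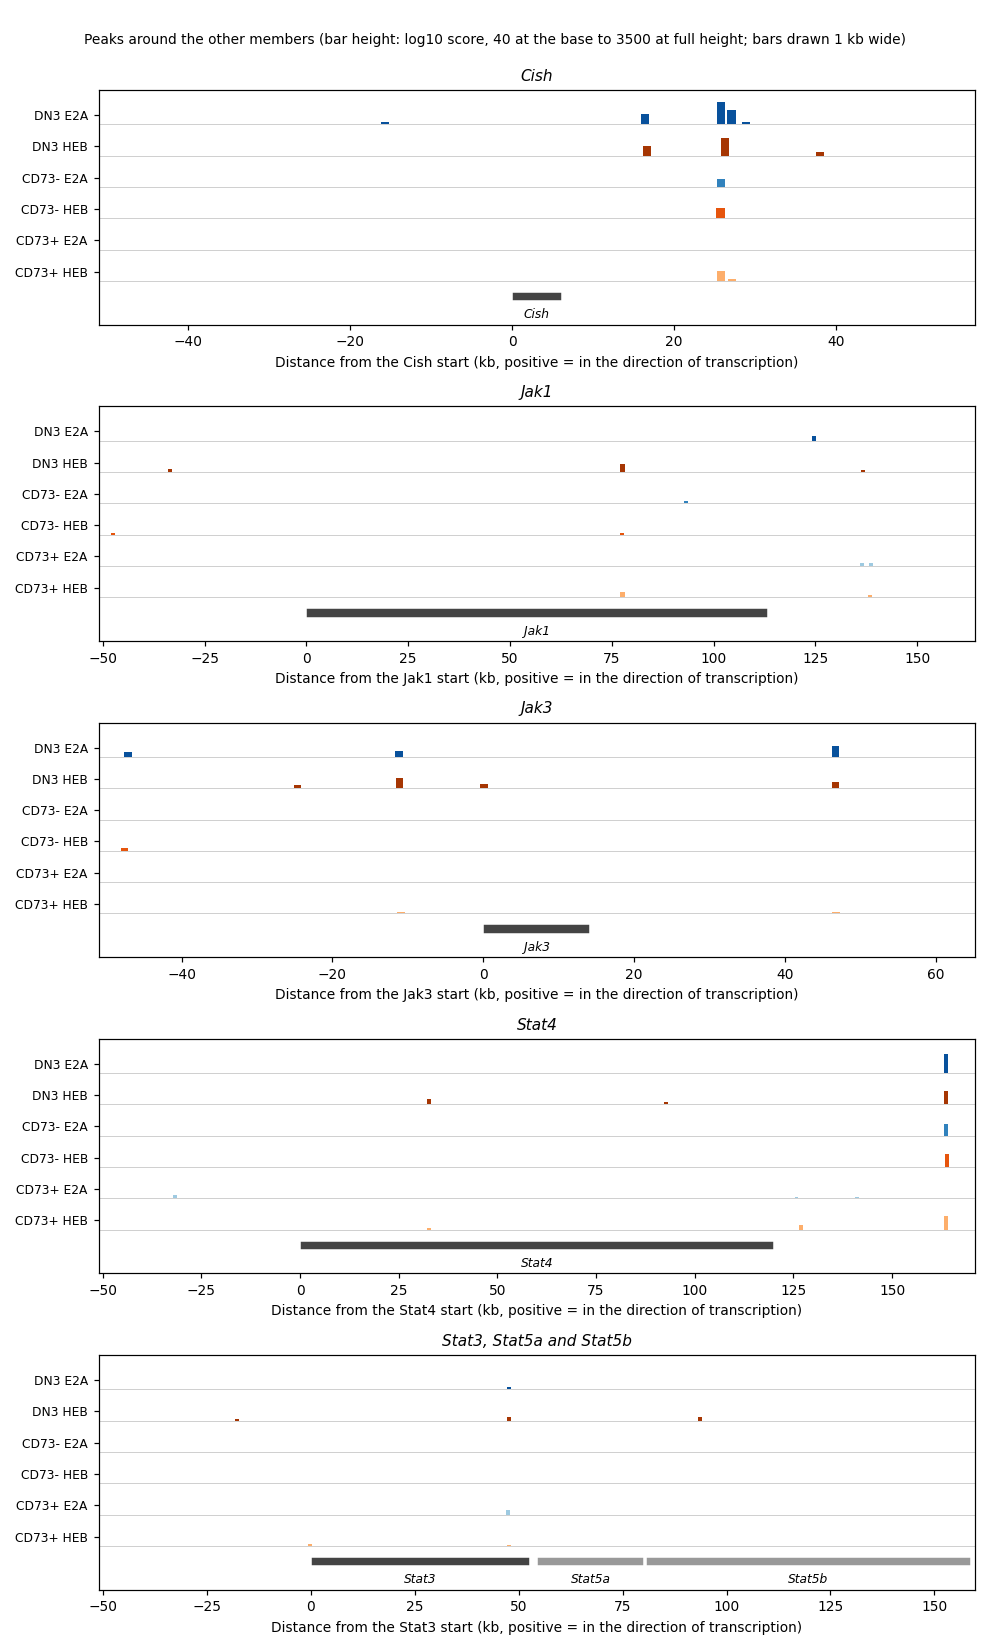
Peaks of the 6 lists around Cish, Jak1, Jak3, Stat4 and the locus of Stat3, Stat5a and Stat5b, by distance in kb from the start of the first gene named in each panel, positive in the direction of transcription. Bar height is the score on a log scale, bars are drawn 1 kb wide, and boxes are gene spans. The tall bars stand beyond the 3′ ends of Cish and Stat4, and the bars at the Stat3 and Stat5 locus are low in every list.

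Promoter windows, from 250 bp before to 50 bp after a start listed by RefSeq (GRCm38.p6), were available for all 9 genes, 12 windows in all. A DN3 HEB peak reached the window of Jak3, Socs1 and Socs3 (3 of 9 genes, against 2.88% of coding genes with a window), and 1 of DN3 E2A that of Socs1 (1 of 9, against 2.58%). A CD73+ HEB peak reached those of Socs1 and Stat3 (2 of 9, against 2.05%). At Socs1 the HEB peaks reached only bases of the window after the start. No window was reached in the CD73- E2A, CD73- HEB or CD73+ E2A lists, for which the shares over coding genes were 0.406%, 0.606% and 0.280%. The bases before the span of the genes whose windows a peak reached, where the window extends past the span, are shown with those of Jak1, whose window had no peak, for comparison. They are read 5′ to 3′ on the strand of the gene, and capitals mark E-boxes (CANNTG, the same on both strands).
Socs1 (chr16:10785537-10785786, minus strand): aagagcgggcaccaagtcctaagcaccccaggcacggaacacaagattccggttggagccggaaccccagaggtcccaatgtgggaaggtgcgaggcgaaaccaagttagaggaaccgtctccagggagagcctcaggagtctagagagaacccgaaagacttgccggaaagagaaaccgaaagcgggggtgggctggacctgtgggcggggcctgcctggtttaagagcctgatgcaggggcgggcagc
Jak3 (chr8:71676133-71676382, plus strand): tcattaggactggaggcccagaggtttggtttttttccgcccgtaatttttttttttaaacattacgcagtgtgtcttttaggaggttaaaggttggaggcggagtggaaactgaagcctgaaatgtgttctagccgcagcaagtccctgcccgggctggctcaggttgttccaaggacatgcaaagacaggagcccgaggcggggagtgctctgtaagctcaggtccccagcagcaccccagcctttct
Stat3 (chr11:100939595-100939790, minus strand): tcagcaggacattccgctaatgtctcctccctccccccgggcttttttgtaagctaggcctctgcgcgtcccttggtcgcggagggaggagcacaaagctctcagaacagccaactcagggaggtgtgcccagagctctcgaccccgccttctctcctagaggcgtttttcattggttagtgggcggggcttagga
Jak1 (chr4:101265283-101265473, minus strand): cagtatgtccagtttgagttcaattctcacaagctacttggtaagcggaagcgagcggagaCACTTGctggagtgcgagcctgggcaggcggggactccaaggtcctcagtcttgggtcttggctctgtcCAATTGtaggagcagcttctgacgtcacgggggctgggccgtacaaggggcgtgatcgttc

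The DN3 E2A peak covered all 250 bases shown for Socs1, the DN3 HEB peak all 250 for Jak3, and the CD73+ HEB peak 169 of 196 for Stat3. None of these 3 stretches holds an E-box, while that of Jak1 holds 2. Over the full windows an E-box was present in 1 of the 4 with a peak (Stat3) and in 7 of the 8 without. The E-box of Stat3, a CAGCTG, lay outside the CD73+ HEB peak, which began at 100939622 within the stretch shown. Of 21238 windows of coding genes 69.0% held one, 77.3% of the 1046 with a peak of any list and 68.6% of the others. The letters CAGCTG, found in 15.6% of all windows, were present for Stat3, for the second start of Stat5a and for the second start of Stat5b. CAGGTG or its reverse complement CACCTG, in 19.7%, was present for Stat5a and for both starts of Stat4. The STAT element TTCNNNGAA, the same on both strands and found in 7.69% of all windows, occurred 2 times for Cish, 1 time for Socs3 and in no other member window. A match of letters is no measured site, and the sequence under the distal peaks was not used here.

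Of the 55 sites, 36 had a peak in 1 list only, with scores of 50.04 to 174 and a median of 61.9. Only 4 of these 36 were strong, all at Socs3, and the like share over all sites of the series was not counted. Over the whole series 82.3% of sites had a peak in 1 list only, against 65.5% here. By list, 10 of the 36 were from DN3 E2A, 12 from DN3 HEB, 1 from CD73- E2A, 2 from CD73- HEB, 6 from CD73+ E2A and 5 from CD73+ HEB. As shares of the 55 sites these were 18.2%, 21.8%, 1.82%, 3.64%, 10.9% and 9.09%. Over all sites of the series the shares in that order were 9.81%, 7.96%, 14.5%, 8.82%, 33.0% and 8.18%. Another 8 sites had peaks in 2 lists (14.5%, against 10.5% of all sites) and 11 in 3 or more. Those in exactly 3, 4, 5 and 6 lists numbered 5, 2, 2 and 2, against 3.50%, 1.59%, 1.02% and 1.04% of all sites. Both factors had a peak in DN3 cells at 15 of the 55 sites, 27.3%, against 9.05% of all 58451 sites. E2A had peaks at all 3 stages at 2 sites (1.31% of all sites), those of Socs3 and Socs1 that were in all 6 lists (2 sites, 1.04%). HEB had peaks at all 3 stages at 6 sites (2.74%), those same 2, the main sites of Cish, Stat4 and Jak1, and the site over the 5′ part of Socs1. The E2A and HEB counts rest on the factor labels of the CD73+ lists. With these lists exchanged, E2A had 4 sites at all 3 stages and HEB 2.

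Of the 15 DN3 sites of both factors, 10 had a CD73+ HEB peak (49.9% of all such sites in the series), 5 had one of CD73- HEB (32.0%), 4 of CD73- E2A (24.0%) and 3 of CD73+ E2A (16.0%). At 5 of the 15 no CD73- or CD73+ peak was called (42.6%). The members' shares for CD73- E2A, CD73- HEB and CD73+ E2A, 26.7%, 33.3% and 20.0%, were near those of the series. All 11 sites in 3 or more lists had a DN3 HEB and a CD73+ HEB peak. A DN3 E2A peak was at 10 of them, the exception being that within Jak1. The same shares over all such sites of the series were not counted, so this is not shown to be particular to the members. At these 11 sites 25 CD73- or CD73+ peaks were called, and the midpoint of each lay inside a DN3 peak. Peaks were joined by overlap and DN3 peaks were the wider ones, so much of this follows from the joining. The median DN3 width over the whole list was 617 bp and 721 bp, against 149 bp to 181 bp in the other 4 lists. In position, 9 of the 55 sites touched the span of a member and 17 only that of another coding gene. Positions were not counted over all sites of the series.

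**Figure D5:**
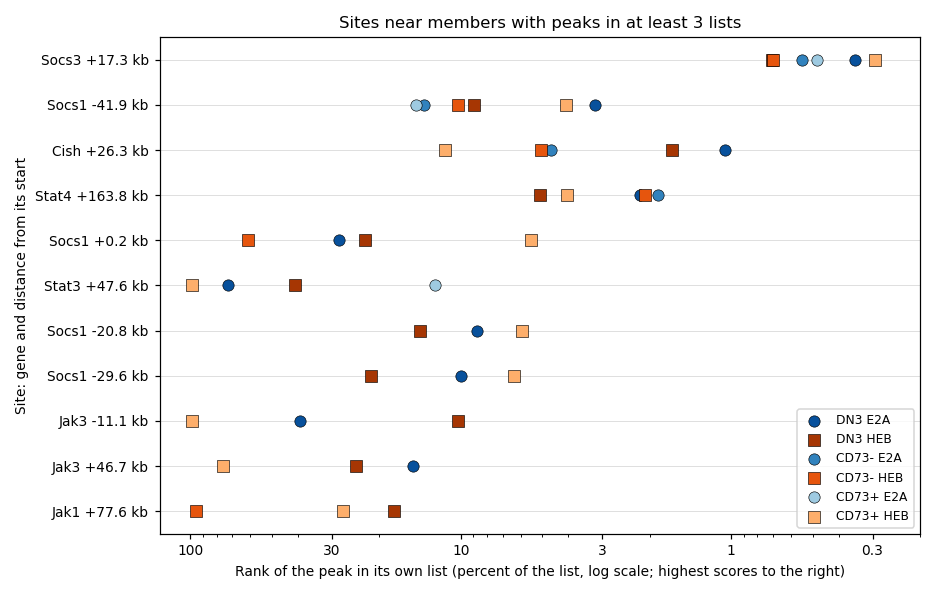
Rank of the peak within its own list, as percent of that list on a log scale with the highest scores to the right, for the 11 sites with peaks in 3 or more lists (rows, named by gene and distance from its start). Circles are E2A, squares are HEB and the shade gives the stage. The site 17.3 kb from the start of Socs3 has all 6 peaks at 0.706% or better, and the sites of Jak1, Jak3 and Stat3 each have a peak at 75.5% or beyond.

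At the edge of the 50 kb window, a CD73+ HEB peak of 55.03 lay 49939 bp from Socs1, just inside, and a DN3 HEB peak of 58.3 lay 50414 bp away, just outside. For Socs3 the values were 176 for DN3 E2A at 46815 bp and 53.6 for DN3 HEB at 50995 bp.

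Socs3, Socs1, Jak1 and Stat4 each had peaks in all 6 lists, and Socs3 had the highest percentile ranks of these 4. Its pattern of 6 percentile ranks was compared with those of 21883 coding genes whose windows do not overlap its own. The closest were 8 genes that tied because they reach the same peaks on chromosome 8, among them Zc3h18, Il17c, an interleukin 17 family cytokine, and Cyba, a subunit of the phagocyte oxidase. Their mean absolute difference from Socs3 was 0.076 percentile points over the 6 lists. The peaks scored 2799 (DN3 E2A), 1058 (DN3 HEB), 672 (CD73- E2A), 756 (CD73- HEB), 353 (CD73+ E2A) and 2063 (CD73+ HEB).

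Other genes of the pathway were counted from lists written with earlier results of these data known. Of 10 other JAK, STAT and SOCS genes, 8 had a DN3 E2A peak within 50 kb, 8 one of DN3 HEB, 6 of CD73- E2A, 5 of CD73- HEB, 5 of CD73+ E2A and 6 of CD73+ HEB. Strong peaks stood near 3, 3, 3, 3, 1 and 4 of them in the same order. Peaks in the windows of the members were not left out, so a peak can count for a member and for a gene of this list. For all coding genes the shares in that order were 49.6%, 48.1%, 41.3%, 37.9%, 53.0% and 41.8% for any score, and 27.5%, 22.2%, 7.08%, 9.08%, 9.11% and 15.8% for strong peaks. Tyk2, the kinase of interferon receptors, had 94.0 (DN3 E2A), 65.4 (DN3 HEB), 195 (CD73- E2A), 163 (CD73- HEB), 59.0 (CD73+ E2A) and 442 (CD73+ HEB). Socs7 had 482, 279, 163, 110.4 and 269 in the same lists except CD73+ E2A, where it had none. Socs2, an inhibitor of growth hormone signalling, had 57.5 (DN3 HEB) and 147 (CD73+ E2A) only.

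Upstream of the JAKs, 17 of 18 cytokine receptor genes had a peak of DN3 E2A and 12 one of DN3 HEB. In CD73- cells 3 had an E2A peak and 12 a HEB peak, and in CD73+ cells 9 and 13. The CD73- E2A count of 3 of 18 was under the 41.3% of all coding genes, and the DN3 E2A count of 17 above their 49.6%. The CD73+ E2A count of 9 was near their 53.0%. For DN3 HEB, CD73- HEB and CD73+ HEB the shares of all coding genes were 48.1%, 37.9% and 41.8%. Strong peaks of DN3 E2A, DN3 HEB and CD73+ HEB stood near 10 genes each, those of CD73- HEB near 4, and those of CD73- E2A and CD73+ E2A near 1 each. The shares of all coding genes with a strong peak were 27.5%, 22.2%, 15.8%, 9.08%, 7.08% and 9.11% in that order. Ifnar1, Ifnar2 and Ifngr2 had some of their highest peaks in common and are counted as separate genes. Il7r, the interleukin 7 receptor, had 75.8 (DN3 E2A), 119 (DN3 HEB), 86.2 (CD73- HEB), 59.5 (CD73+ E2A) and 201 (CD73+ HEB). Il2rg, the common gamma chain to which Jak3 binds, had a single peak, of 50.55 for DN3 E2A. Il6ra had the highest ranks of the list, with 1126, 988, 657, 607, 397.5 and 1806 in DN3 E2A and HEB, CD73- E2A and HEB, and CD73+ E2A and HEB. Il6st, which encodes gp130, had 216 (DN3 E2A), 271 (DN3 HEB), 160.2 (CD73- HEB), 60.9 (CD73+ E2A) and 343 (CD73+ HEB). Il21r had peaks in all 6 lists, of 613 (DN3 E2A), 212 (DN3 HEB), 81.4 (CD73- E2A), 142 (CD73- HEB), 54.3 (CD73+ E2A) and 152 (CD73+ HEB). Ifngr1 had 223 (DN3 E2A), 63.4 (CD73- HEB), 81.7 (CD73+ E2A) and 408 (CD73+ HEB).

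Of 9 other negative regulators, 6 had a peak of DN3 E2A, 6 of DN3 HEB, 3 of CD73- E2A, 3 of CD73- HEB, 5 of CD73+ E2A and 6 of CD73+ HEB. Against the shares of all coding genes, 41.3% for CD73- E2A, 37.9% for CD73- HEB and 53.0% for CD73+ E2A, these counts were near or below, while those of DN3 E2A (49.6%), DN3 HEB (48.1%) and CD73+ HEB (41.8%) were above. Strong peaks stood near 6, 3, 0, 1, 1 and 3 of them, against 27.5%, 22.2%, 7.08%, 9.08%, 9.11% and 15.8% of all coding genes. Pias4, a SUMO ligase that restrains STATs, had 153, 245, 284 and 159 for DN3 E2A, DN3 HEB, CD73- HEB and CD73+ HEB. Ptprc, the phosphatase CD45, had 238, 184 and 257 for DN3 E2A, DN3 HEB and CD73+ HEB. Ptpn11, the phosphatase SHP2, had 137 and 154 for DN3 E2A and HEB, 83.0 for CD73- HEB, 129 for CD73+ E2A and 60.07 for CD73+ HEB. Pias1 had 74.9 (DN3 HEB), 55.9 (CD73- E2A) and 147 (CD73+ HEB).

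Of 10 genes known as targets of STAT5 or STAT3, 8 had a peak of DN3 E2A, 8 of DN3 HEB, 3 of CD73- E2A, 6 of CD73- HEB, 6 of CD73+ E2A and 7 of CD73+ HEB. The CD73- E2A count was below the 41.3% of all coding genes and the CD73+ E2A count near their 53.0%, while the shares for DN3 E2A, DN3 HEB, CD73- HEB and CD73+ HEB were 49.6%, 48.1%, 37.9% and 41.8%. Strong peaks stood near 6, 5, 1, 1, 1 and 2 of the 10, against 27.5%, 22.2%, 7.08%, 9.08%, 9.11% and 15.8% of all coding genes. Ccnd3, the cyclin of pre-T cell division, had the highest ranks, with 2499 (DN3 E2A), 3002 (DN3 HEB), 1486 (CD73- E2A), 2466 (CD73- HEB), 604 (CD73+ E2A) and 1472 (CD73+ HEB). Bcl2l1, which encodes the survival protein BCL-XL, had 808 and 514 for DN3 E2A and HEB, 51.8 and 92.9 for CD73- E2A and HEB, and 488 for CD73+ HEB. Osm, the cytokine oncostatin M, had 207 (DN3 E2A), 188 (DN3 HEB), 60.1 (CD73+ E2A) and 59.9 (CD73+ HEB). Bcl2, the survival gene maintained by interleukin 7, had 206.5 (DN3 E2A), 166 (DN3 HEB) and 95.7 (CD73+ HEB), and no CD73- peak.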

How the data were processed

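Peaks of E2A and HEB in DN3, CD73- and CD73+ cells were used as the authors deposited them, 6 lists in all, with 1 list per group. Bowtie, HOMER and MACS 1.4.2 with build mm10 are named in the submitters' processing notes, and duplicates were joined before deposit, per the labels' protocols. The deposited score is the authors' MACS value, 10 times the negative log10 of the p-value, and no read depth is given. Each list went to the group whose cells and antibody its name gives, and 0 columns were left unmatched. Peaks on the 21 main chromosomes were kept, and starts were made 1-based.

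Gene spans came from RefSeq GRCm38.p6, the same build, without exons, and 17492 coding genes had a promoter window there. Peaks that overlapped by at least 1 bp formed a site, and distances run from the nearer edge. Counts of members and of pathway lists stand beside the shares over all coding genes, and no test was run, since no group has replicate lists. Members and gene lists were chosen with earlier results of these data known. All members were named, with sites that had peaks in 3 or more lists or a score of at least 100 given singly, and up to 4 genes with the highest ranks per pathway list. A gene that this rule names is not reported here, though it counts in the total of its list. Il7r and Il2rg were named after their values were seen, for their known role. The counting was tested on simulated peaks. Alternatives were a score of at least 100, a 10 kb window, equal list lengths of 9407 peaks, no peaks wider than 3000 bp, midpoints within 200 bp, gaps of up to 500 bp, and the CD73+ lists exchanged. Python 3.11.15, numpy 2.4.6 and pandas 2.3.3 were used.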

Additional observations from a re-analysis of the deposited data

How the results depend on the processing

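Of 54 recomputed counts, 34 stayed within 1.5 times the reported value. Some of these 34 could not have changed. Leaving out peaks wider than 3000 bp gave 6 of them, since the widest peak near a member, at Socs3, was 2461 bp. Exchanging the CD73+ lists gave 3, the counts of sites, of DN3 sites of both factors and of sites in all 6 lists. Equal lists were set to the length of the CD73- HEB list, so its count was fixed too. Equal list lengths and joining peaks across gaps of up to 500 bp moved none of the counts they were run on by more than 1.5 times. With strong peaks only, the members with a peak fell from 9 to 5 for DN3 E2A, from 5 to 3 for CD73- E2A, from 7 to 1 for CD73+ E2A and from 9 to 4 for CD73+ HEB. Sites near members then numbered 17, with 1 at all 3 stages for E2A and 1 in all 6 lists. With a 10 kb window the members with a peak were 5 (DN3 E2A), 1 (CD73- E2A), 2 (CD73- HEB), 3 (CD73+ E2A) and 5 (CD73+ HEB). Sites numbered 19, of which 4 had both factors in DN3 cells, 2 had HEB at all 3 stages, and 0 had E2A at all 3 stages or peaks in all 6 lists. Shares over all coding genes at 10 kb, and over all sites with strong peaks or at 10 kb, were not counted. These falls are therefore not shown to be particular to the members. Joining by midpoints within 200 bp left 1 site in all 6 lists. With the CD73+ lists exchanged, 4 sites had E2A and 2 had HEB at all 3 stages. No paired analysis was possible because each group has 1 pooled list and no test was run. Depth is unknown, so a missing peak near the minimum score cannot be told apart from a weak one.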

Other observations

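A stretch beyond the 50 kb window of Socs3 held another site with peaks in all 6 lists. It lay 93429 bp from the gene at its CD73+ HEB peak, within Tha1, a threonine aldolase gene, on chromosome 11 at 117870694 to 117873050. Scores there were 1016 (DN3 E2A), 449 (DN3 HEB), 83.3 (CD73- E2A), 354 (CD73- HEB), 113 (CD73+ E2A) and 1238 (CD73+ HEB). The CD73+ HEB peak there ranked 68 of 10194. The CD73+ E2A peak, 117872652 to 117872719, overlapped the DN3 peaks only.

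Between 50 kb and 100 kb from Jak3, the peak with the highest rank was a DN3 E2A peak of 430.5 within Pgls, a gene of the pentose phosphate pathway, 84160 bp away. At the same site were peaks of 235 for DN3 HEB, 79.7 for CD73- HEB and 238 for CD73+ HEB. For Jak1, Cish and Stat4 the highest-ranked peak in that range scored 50.8, 75.3 and 51.0, each in 1 list only.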
